A study of Homo sapiens with 12 samples.

Results

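The genes described here encode glutamate receptors, the auxiliary subunits that accompany them and the transporters that load glutamate into synaptic vesicles. They were chosen as a list of 35 symbols: 4 AMPA, 5 kainate, 7 NMDA, 1 delta and 7 metabotropic receptor genes, 8 auxiliary subunit genes and 3 vesicular transporter genes. All 35 matched 1 gene ID on a reference chromosome, out of 63925 IDs listed and 33131 with a count in at least 1 library. The RNA came from neural cultures grown from the human embryonic stem cell lines H9 and H1, both established lines, by 10 weeks of differentiation with dual inhibition of SMAD signalling. Each line gave 3 sister cultures kept for 6 h with 1 µM dexamethasone, a synthetic glucocorticoid, and 3 kept for 6 h with the DMSO vehicle. The 12 cultures form 4 groups, by line and treatment. All of them were grown in medium that contained BDNF, GDNF, ascorbic acid and cyclic AMP. Each genotype is represented by a single line, and whether H9 and H1 were differentiated side by side is not in the labels, so an effect of the line and one of its differentiation cannot be told apart.

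Glutamate is the main excitatory transmitter of the brain. AMPA, kainate and NMDA receptors are tetrameric ion channels: AMPA receptors carry most fast current, kainate receptors modulate release and excitability, and NMDA receptors admit calcium when glutamate binds during depolarisation. Metabotropic receptors signal through G proteins, and vesicular transporters define a neuron as able to release glutamate.

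Total counts were 14751168 in H9 vehicle culture 3 and 20871163 to 27505804 in the other 11 libraries. H9 vehicle culture 3 stood apart. Mitochondrially encoded genes took 0.607% of its counts, while the share was 4.80% to 5.64% in the remaining H9 cultures and 2.91% to 3.23% in H1. Of 34 tested members, 18 had their highest level of the 12 libraries in this culture and 5 their lowest, beside 31.4% and 30.6% of all genes tested. In 13 members its level was over 1.5 times the mean of its sister cultures, and in 4 it was under that mean divided by 1.5. These counts were not made over all genes. The results below are therefore given with and without it. The p-values rest on the spread among sister cultures and do not cover separate differentiations.

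The cultures are labelled neural, and their markers were not those of neurons alone. The summed level of 10 pan-neuronal marker genes was 4088 to 6766 CPM, that is counts scaled to a common library size by the TMM method. The neural progenitor markers summed to 3936 to 7796 CPM, with the highest value in H9 vehicle culture 3. The 5 microglial markers summed to at most 0.689 CPM. TUBB3, a neuronal tubulin, averaged under 1 CPM, and SOX2 and HES5 were listed at 0 in all libraries. Of 142 protein-coding genes that lie in an intron of a gene of the same strand, 99.3% were listed at 0, against 12% of 9497 protein-coding genes without an overlap. A value of 0 for such a gene is thus no measure of its RNA. Among the members only GRID1 (1.32% of its exon length) and CACNG8 (1.04%) had exon sequence within another gene of the same strand. Genes of the same strand inside the introns of members were not looked for.

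Levels differed widely among the members. The zeros of genes inside introns would arise if reads were counted over whole genes, introns included, which was not tested. Exon length would then not be the length counted, and orders and shares per kb would be uncertain. Per kilobase of exon, the auxiliary subunit CACNG4 was highest at 88.6 CPM per kb (mean of 12 cultures). The AMPA subunit GRIA1 followed at 69.7, then CNIH2 at 36.6, the kainate subunit GRIK5 at 22.4 and GRIA2 at 20.2. The order of GRIK5 and GRIA2 was the reverse in 3 of 4 groups and came from H9 vehicle, where culture 3 was highest for GRIK5. In the H9 vehicle group the order of CNIH2 (34.7 ± 12.7, SD, n = 3) and GRIK5 (33.0 ± 12.9) was within their spread. In the H1 vehicle group CACNG4 (80.3 ± 5.57), GRIA1 (58.3 ± 5.46) and CNIH2 (32.5 ± 0.489) were separated by more than their spread. At the other end stood GRIN2C at 0.185, CACNG3 at 0.158 and GRM6 at 0.00427 CPM per kb. GRM6, the metabotropic receptor of retinal bipolar cells, had 10 counts in all 12 libraries together and was the member that did not pass the filter on low counts. The other 34 were tested. GRIN3A passed the filter through its H9 libraries alone.

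**Figure D1:**
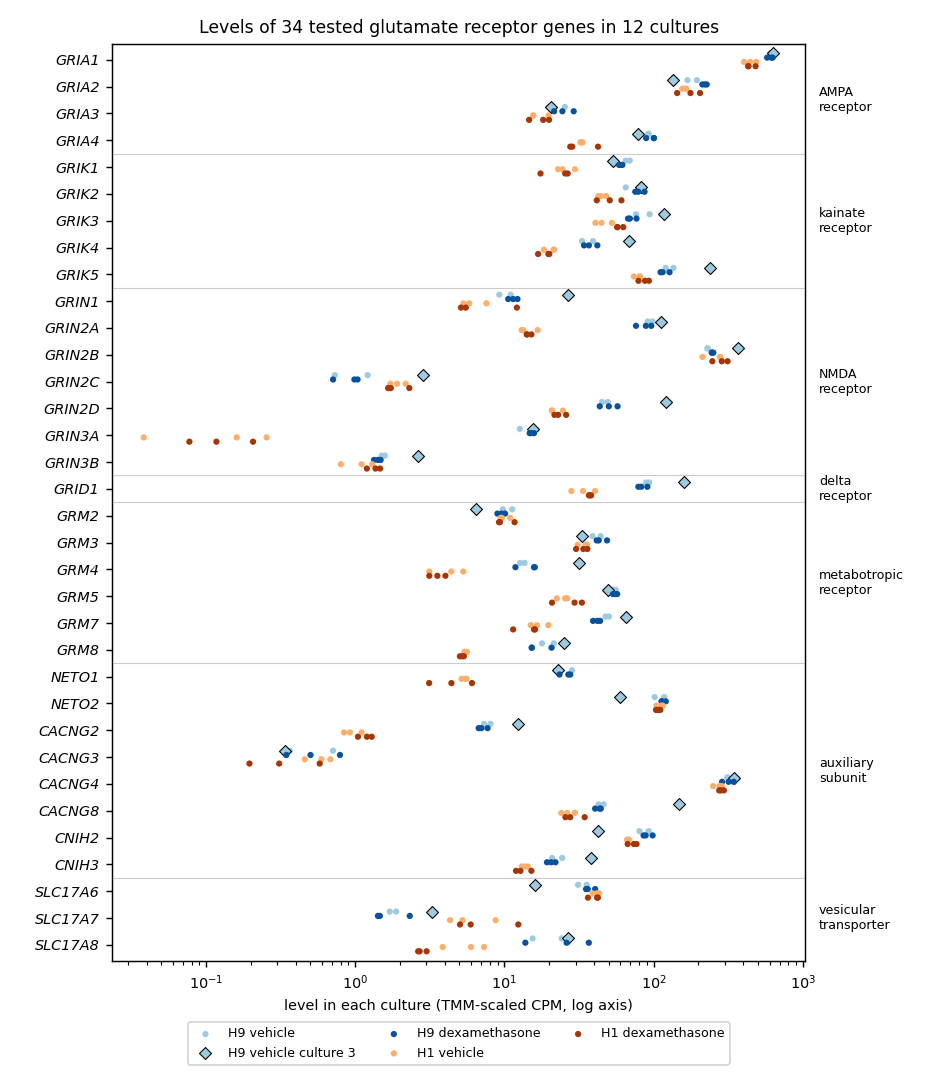
Level of each of the 34 tested members in each of 12 cultures, as TMM-scaled CPM on a log axis; each point is 1 culture, coloured by group, and the diamond is H9 vehicle culture 3. GRIN3A lies between 12.7 and 15.8 CPM in H9 and at or below 0.254 CPM in H1.

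Most members were higher in H9 than in H1. Among the vehicle cultures 22 of 34 members were higher in H9 and 2 were lower by edgeR's quasi-likelihood test (adjusted p under 0.05 over all genes), beside 25.7% of all genes tested that were higher and 21.2% that were lower. Either way, 46.9% of all genes passed. The median log2 difference, H9 minus H1, was 1.07 over the members and 0.03 over all genes. In the dexamethasone cultures, which share no library with the vehicle cultures, 19 were higher and 2 lower (22.5% and 21.2% of all genes, 43.6% either way), with a median of 0.58. Without H9 vehicle culture 3 the counts were 25 higher and 3 lower with vehicle (30.1% and 28.6% of all genes, 58.6% either way) and 25 higher and 2 lower with dexamethasone (31.9% and 32.8%, 64.6% either way). With vehicle the 3 H9 and 3 H1 cultures did not overlap in 24 members higher in H9 and 2 lower (27.5% and 27.2% of all genes, 54.7% either way). With dexamethasone they did not overlap in 25 higher and 2 lower (33.7% and 34.5%, 68.2% either way). In 20 members every H9 culture of either treatment lay above every H1 culture, and in 1 every H9 culture lay below (20.3% and 19.9% of all genes, 40.2% either way). In bulk RNA, a difference in the number of cells of a type and one in RNA per cell cannot be told apart.

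The members that passed in both treatments were 17 higher ones (18.3% of all genes) and 1 lower one, SLC17A7 (14.7%). GRIK3, GRIK5, GRIN1, GRIN3B, CACNG8 and SLC17A6 passed in the vehicle cultures only, and GRIA3, GRIN2C and GRM3 in the dexamethasone cultures only. Whether a line difference itself depended on treatment was tested below, and no member passed. Leaving H9 vehicle culture 3 out, 24 members were higher in both treatments and 2, GRIN2C and SLC17A7, were lower in both.

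**Figure D2:**
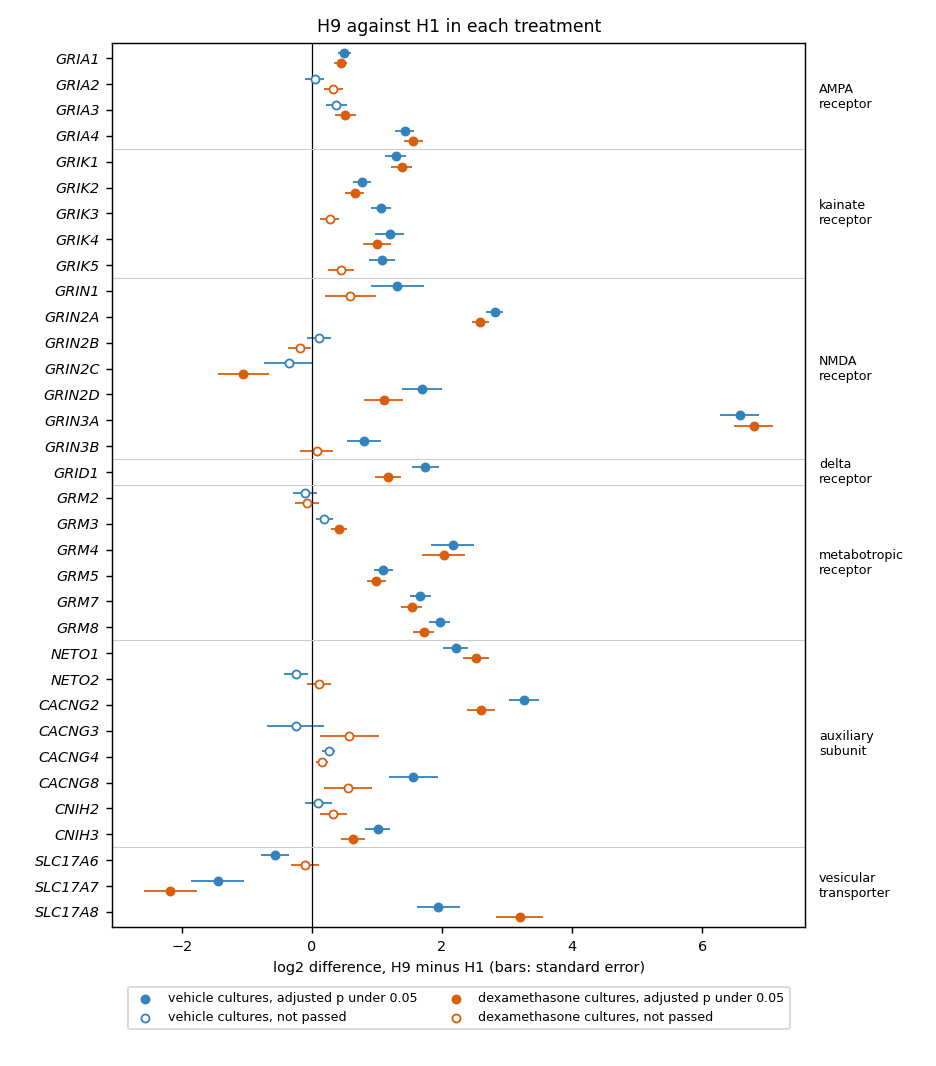
Log2 difference, H9 minus H1, of each tested member in the vehicle cultures and in the dexamethasone cultures, with its standard error; filled points have an edgeR adjusted p under 0.05. Filled points to the right of 0 number 22 in vehicle and 19 in dexamethasone.

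AMPA receptors are built from the subunits GRIA1 to GRIA4, and GRIA2 is the subunit that makes the channel impermeable to calcium. Of 4, 2 were higher in H9 in the vehicle cultures (25.7% of all genes) and 3 in the dexamethasone cultures (22.5%). GRIA1 (ENSG00000155511.17, chromosome 5, 153489615 to 153813869, plus strand, GRCh38) was at 607, 637 and 637 CPM in H9 vehicle cultures 1 to 3 and at 578, 618 and 629 CPM in the H9 dexamethasone cultures. In H1 it was at 488, 404 and 444 CPM with vehicle and 484, 433 and 432 CPM with dexamethasone. No H1 culture reached an H9 culture. The log2 difference was 0.49 ± 0.10 (SE, edgeR adjusted p = 0.00161) in vehicle and 0.44 ± 0.10 (adjusted p = 0.00361) in dexamethasone.

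GRIA4, found in fast channels of many interneurons, had the larger difference of the family. It averaged 88.0 ± 7.64 CPM (vehicle) and 96.8 ± 6.54 CPM (dexamethasone) in H9, and 32.8 ± 0.571 and 32.9 ± 8.31 CPM in H1 (SD, n = 3 each), a log2 difference of 1.42 ± 0.15 and 1.56 ± 0.15. GRIA3 passed with dexamethasone (0.51 ± 0.16, edgeR adjusted p = 0.0235, passed in 8 of 12 fits that left out 1 library) and had 0.37 ± 0.16 with vehicle (adjusted p = 0.0781).

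GRIA2 (ENSG00000120251.18, chromosome 4, 157204182 to 157366075) was the AMPA gene that did not pass in either treatment. It was at 196, 169 and 135 CPM in the H9 vehicle cultures and at 221, 227 and 212 CPM in the H9 dexamethasone cultures. The H1 cultures had 166, 156 and 164 CPM with vehicle and 205, 177 and 144 CPM with dexamethasone. The lines overlapped with vehicle and did not with dexamethasone (log2 difference 0.33 ± 0.15, edgeR adjusted p = 0.0865, and 0.00665 without H9 vehicle culture 3).

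The promoters of the members were searched for 6 motifs in the 250 bases before each RefSeq transcript start (GRCh38.p14), on both strands. RefSeq held 45 such windows for 27 members, and 20 of them contained no GENCODE 29 exon. The full glucocorticoid response element, AGAACA and TGTTCT separated by 3 bases, was in 0 of the 45 windows and in 1 of 35116 windows of all genes. The left part TTCAGCACC of RE1, the site of the repressor REST that silences neuronal genes outside neurons, was in 3 windows (0.288% of all windows), those of CACNG3, GRIA2 and GRM2. The right part GGACAGCGC was in 1, that of GRIA2 (0.427%). The SP1 box GGGCGG was in 22 of 45 (42.6% of all), the cAMP response element TGACGTCA in 0 (1.65%) and the TATA box TATAAA in 1 (10.7%). Which motifs are shown in capitals was decided after the matches were seen. The GRIA2 window, chr4:157220369-157220618 on the plus strand, lies in an intron of the longest GRIA2 model and is shown because it held both RE1 parts, which are the capitals, both in reverse complement.
GRIA2: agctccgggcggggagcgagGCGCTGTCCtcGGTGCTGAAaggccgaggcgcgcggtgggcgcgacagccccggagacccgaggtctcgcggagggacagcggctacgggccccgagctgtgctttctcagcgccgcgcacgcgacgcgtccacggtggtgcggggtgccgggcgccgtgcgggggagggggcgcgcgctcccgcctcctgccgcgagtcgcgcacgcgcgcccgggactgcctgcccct
Other windows are printed beside their genes below.

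Of 5 kainate receptor genes, 5 were higher in H9 with vehicle (25.7% of all genes) and 3 with dexamethasone (22.5%). On the neuron-marker scale described below, GRIK1 was the 1 kainate gene higher with dexamethasone. GRIK5, an obligate high-affinity partner subunit, had the highest level per kb of the family. It was at 121, 136 and 240 CPM in the H9 vehicle cultures and 115, 111 and 128 CPM in the H9 dexamethasone cultures. Its H1 cultures were at 80.9, 73.8 and 80.8 CPM with vehicle and 93.2, 79.3 and 87.7 CPM with dexamethasone. H9 vehicle culture 3 was the highest of all, and the lines did not overlap. H9 minus H1 on the log2 scale was 1.08 ± 0.21 with vehicle (edgeR adjusted p = 0.00123), 0.71 without H9 vehicle culture 3 and 0.45 ± 0.20 with dexamethasone (adjusted p = 0.0967, and 7.37e-05 without that culture).

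GRIK1 to GRIK4 were all higher in H9 with vehicle. GRIK1 averaged 62.7 ± 8.03 CPM in H9 and 25.7 ± 3.58 CPM in H1 (SD, n = 3; log2 difference 1.29 ± 0.16), and GRIK2 76.7 ± 10.0 and 45 ± 2.74 CPM (0.77 ± 0.14). GRIK4, the other high-affinity partner, averaged 46.9 ± 18.8 and 20.4 ± 1.74 CPM (1.19 ± 0.22, and 0.83 without H9 vehicle culture 3). These 3 also passed with dexamethasone, at 1.38 ± 0.16, 0.65 ± 0.14 and 1.00 ± 0.22. GRIK3 differed by 1.06 ± 0.15 with vehicle and by 0.27 ± 0.15 with dexamethasone (edgeR adjusted p = 0.156, and 0.0181 without H9 vehicle culture 3).

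NMDA receptors need the obligate subunit GRIN1, which binds glycine, joined by GRIN2 subunits that bind glutamate or by the GRIN3 subunits. Of 7 genes 5 were higher in H9 with vehicle (25.7% of all genes). With dexamethasone 3 were higher (22.5% of all genes) and 1, GRIN2C, was lower (21.2%). GRIN3A (ENSG00000198785.4, chromosome 9, 101569353 to 101738580, minus strand), whose product lowers calcium entry and is prominent in early life, was near 0 in H1. It was at 12.7, 15.5 and 15.6 CPM in the H9 vehicle cultures and 15.8, 14.8 and 15.1 CPM in the H9 dexamethasone cultures. The H1 levels were 0.254, 0.0382 and 0.16 CPM with vehicle and 0.0773, 0.206 and 0.117 CPM with dexamethasone. These H1 levels rest on 11 counts in the vehicle group and 10 in the dexamethasone group, against 913 and 1067 in H9. The fitted fold between the lines was 95.4 with vehicle and 111 with dexamethasone. Because the filter kept GRIN3A through the H9 libraries alone, it had to differ, so these are descriptions with no test, and GRIN3A is 1 of the members in the counts of higher ones. The window before its start, chr9:101738648-101738897 on the minus strand, lies upstream of the gene. It held no match to the RE1 parts or the glucocorticoid element and is shown because the gene was near 0 in H1.
GRIN3A: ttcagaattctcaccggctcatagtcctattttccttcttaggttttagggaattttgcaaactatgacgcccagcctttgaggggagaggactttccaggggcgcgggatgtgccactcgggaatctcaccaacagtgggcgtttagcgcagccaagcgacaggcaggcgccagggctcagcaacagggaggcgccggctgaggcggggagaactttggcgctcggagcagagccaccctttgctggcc

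GRIN2A and GRIN2B encode the GRIN2 subunits that prevail in mature and in fetal forebrain, respectively. GRIN2A (ENSG00000183454.16, chromosome 16, 9753404 to 10182754) was at 98.3, 91.5 and 113 CPM in the H9 vehicle cultures and 88.8, 76.3 and 96.6 CPM in the H9 dexamethasone cultures. In H1 it was at 16.7, 13.4 and 13.1 CPM with vehicle and 14.1, 15.2 and 14.2 CPM with dexamethasone. All H9 cultures were far above all H1 cultures, with log2 differences of 2.81 ± 0.13 (edgeR adjusted p = 5.11e-08) and 2.59 ± 0.13 (adjusted p = 7.27e-08). GRIN2B had the highest NMDA level per kb in the H1 groups and over all 12 cultures (8.61 CPM per kb, with GRIN2D at 8.23), but GRIN2D was above it in both H9 groups. GRIN2B was at 231, 230 and 370 CPM in the H9 vehicle cultures and 252, 246 and 246 CPM in the H9 dexamethasone cultures. The H1 cultures had 281, 213 and 278 CPM with vehicle and 314, 287 and 248 CPM with dexamethasone. The lines overlapped in both treatments. Its log2 difference was 0.11 ± 0.18 with vehicle (edgeR adjusted p = 0.651), −0.16 without H9 vehicle culture 3 (adjusted p = 0.209) and −0.19 ± 0.18 with dexamethasone (adjusted p = 0.425).

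The values of the other NMDA genes depended on H9 vehicle culture 3. GRIN2D, a subunit of slow channels in interneurons, averaged 71.6 ± 42.4 CPM in H9 vehicle and 22.1 ± 2.22 in H1 vehicle, with 121 CPM in H9 vehicle culture 3. Its log2 difference was 1.69 ± 0.31, 1.09 without that culture and 1.10 ± 0.30 with dexamethasone. GRIN1 averaged 15.7 ± 9.62 and 6.24 ± 1.20 CPM (1.31 ± 0.40, and 0.70 without it), and with dexamethasone its difference was 0.59 ± 0.40 (edgeR adjusted p = 0.253, and 0.0422 without it). GRIN3B passed with vehicle (0.80 ± 0.26, adjusted p = 0.0239) but not without that culture (adjusted p = 0.068), nor with dexamethasone (adjusted p = 0.855). GRIN2C was lower in H9 with dexamethasone (0.911 ± 0.176 against 1.90 ± 0.353 CPM, log2 difference −1.06 ± 0.39, adjusted p = 0.0468), a call made in 2 of 12 fits that left out 1 library. It was lower without H9 vehicle culture 3 in both treatments (adjusted p = 0.00503 with vehicle).

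GRID1, the delta receptor that bridges synapses through cerebellin and neurexin, was higher in H9. It was at 89.0, 93.5 and 160 CPM in the H9 vehicle cultures and 82.7, 79.1 and 91.0 CPM in the H9 dexamethasone cultures. The H1 cultures had 40.5, 28.1 and 33.7 CPM with vehicle and 37.2, 38.2 and 36.9 CPM with dexamethasone. Culture 3 of H9 vehicle was the highest and the lines did not overlap. H9 minus H1 on the log2 scale was 1.74 ± 0.21 with vehicle (edgeR adjusted p = 3.83e-05), 1.42 without that culture and 1.17 ± 0.20 with dexamethasone.

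Of 6 tested metabotropic receptor genes, 4 were higher in H9 with vehicle (25.7% of all genes) and 5 with dexamethasone (22.5%). GRM4 and GRM8, presynaptic receptors that inhibit release, had the largest differences. GRM4 was at 13.7, 12.7 and 31.6 CPM in the H9 vehicle cultures and 15.8, 11.9 and 16.0 CPM in the H9 dexamethasone cultures. Its H1 levels were 5.30, 3.13 and 4.4 CPM with vehicle and 3.55, 3.14 and 4.02 CPM with dexamethasone. The log2 difference was 2.16 ± 0.33 with vehicle (edgeR adjusted p = 0.000253) and 1.63 without H9 vehicle culture 3, where its level was the highest of the 12. GRM8 was at 17.9, 21.5 and 25.2 CPM in the H9 vehicle cultures and 15.3, 20.7 and 15.3 CPM in the H9 dexamethasone cultures. All 6 H1 cultures lay between 5.03 and 5.61 CPM. Its log2 differences were 1.96 ± 0.16 (edgeR adjusted p = 2.14e-06) and 1.72 ± 0.16.

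GRM3, found on neurons and astrocytes, had the highest level per kb of the family. It was at 44.2, 39.0 and 33.0 CPM in the H9 vehicle cultures and 42.9, 41.6 and 48.8 CPM in the H9 dexamethasone cultures. The H1 cultures had 35.2, 31.0 and 35.8 CPM with vehicle and 33.8, 36.0 and 30.2 CPM with dexamethasone. The lines overlapped with vehicle (log2 difference 0.19 ± 0.12, edgeR adjusted p = 0.223, and 0.0173 without H9 vehicle culture 3) and not with dexamethasone (0.41 ± 0.12, adjusted p = 0.0172). GRM7, a presynaptic receptor, averaged 54.3 ± 9.35 CPM in H9 vehicle and 17.1 ± 2.40 in H1 vehicle (1.67 ± 0.16). GRM5, the group I receptor coupled to phospholipase C, averaged 53.1 ± 3.19 and 24.8 ± 2.07 CPM (1.10 ± 0.15). Opposite-strand GRM5-AS1 covers 50.4% of the GRM5 exon length. No strand setting is given in the sources used here. Of 526 protein-coding genes inside an intron of an opposite-strand gene only, 27.0% were listed at 0, against 99.3% for the same strand. Whether reads of GRM5 and GRM5-AS1 were counted apart was not tested.

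GRM2, which inhibits release and is a partner of GRM3, did not pass in either treatment. Its means were 9.17 ± 2.46 CPM in H9 vehicle and 10.0 ± 0.82 in H1 vehicle, with log2 differences of −0.11 ± 0.18 and −0.08 ± 0.18. Its window, chr3:51706818-51707067 on the plus strand upstream of the gene, held the RE1 left part, given in capitals. A match describes these letters only.
GRM2: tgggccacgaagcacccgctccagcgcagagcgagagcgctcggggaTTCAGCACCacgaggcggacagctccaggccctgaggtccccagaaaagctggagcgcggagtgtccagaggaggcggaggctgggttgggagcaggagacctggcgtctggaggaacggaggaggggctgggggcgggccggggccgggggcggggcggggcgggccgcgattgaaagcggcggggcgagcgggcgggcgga

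Auxiliary subunits set how receptors traffic and gate. TARPs (CACNG2, CACNG3, CACNG4, CACNG8) and cornichons (CNIH2, CNIH3) serve AMPA receptors, and NETO1 and NETO2 serve kainate receptors. Of these 8, 4 were higher in H9 with vehicle (25.7% of all genes) and 3 with dexamethasone (22.5%). None was lower with TMM scaling (21.2% of all genes in each treatment). CACNG2 (stargazin) was at 7.30, 8.06 and 12.3 CPM in the H9 vehicle cultures and 7.01, 6.72 and 7.71 CPM in the H9 dexamethasone cultures. Its H1 cultures were at 1.10, 0.841 and 0.921 CPM with vehicle and 1.04, 1.20 and 1.29 CPM with dexamethasone. The lines did not overlap (log2 differences 3.26 ± 0.23, edgeR adjusted p = 6.88e-07, and 2.60 ± 0.22). NETO1 was at 28.4, 23.8 and 22.9 CPM in the H9 vehicle cultures and 27.7, 23.4 and 26.9 CPM in the H9 dexamethasone cultures. All 6 H1 cultures lay between 3.13 and 6.07 CPM. Its log2 differences were 2.21 ± 0.19 (edgeR adjusted p = 4.00e-06) and 2.52 ± 0.20.

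The paralog NETO2 did not show that difference. Its means were 93.1 ± 30.2 and 116 ± 4.28 CPM in the H9 groups and 111 ± 5.62 and 107 ± 3.58 CPM in the H1 groups (log2 differences −0.25 ± 0.19 and 0.11 ± 0.18). CACNG4, the member with the highest level per kb, was at 312, 314 and 345 CPM in the H9 vehicle cultures and 319, 288 and 345 CPM in the H9 dexamethasone cultures. The H1 cultures had 287, 251 and 277 CPM with vehicle and 296, 276 and 283 CPM with dexamethasone. Its vehicle cultures did not overlap, but the difference was small (log2 0.25 ± 0.10, edgeR adjusted p = 0.051, and 0.0304 without H9 vehicle culture 3). The size of the CACNG8 difference depended on H9 vehicle culture 3, with 147 CPM there against 42.9 and 46.3 in its sister cultures. Its log2 difference was 1.56 ± 0.38 and 0.74 without that culture, and 0.55 ± 0.37 with dexamethasone (edgeR adjusted p = 0.256, and 0.000192 without it). CNIH3 was higher in H9 in both treatments (1.01 ± 0.19 and 0.63 ± 0.19). CNIH2 and CACNG3 did not pass (edgeR adjusted p = 0.724 and 0.663 with vehicle). CNIH2 was, without H9 vehicle culture 3, higher in H9 in both treatments, at 0.36 and 0.33.

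The 3 vesicular transporters differed in direction between the lines. SLC17A7 (VGLUT1, ENSG00000104888.9, chromosome 19, 49429401 to 49442360), typical of cortical and hippocampal excitatory neurons, was lower in H9 in both treatments. It was at 1.70, 1.88 and 3.26 CPM in the H9 vehicle cultures and 2.32, 1.46 and 1.42 CPM in the H9 dexamethasone cultures. The H1 levels were 8.73, 5.24 and 4.32 CPM with vehicle and 12.4, 5.94 and 5.04 CPM with dexamethasone. No H9 culture reached an H1 culture, and culture 1 was the highest in each H1 group. H9 minus H1 on the log2 scale was −1.45 ± 0.40 with vehicle (edgeR adjusted p = 0.0114, passed in 11 of 12 fits that left out 1 library; −1.11 and adjusted p = 0.0535 without H1 vehicle culture 1) and −2.18 ± 0.41 with dexamethasone (adjusted p = 0.00105). The 6 excitatory lineage markers moved with it. Their summed level was 21.4 to 33.4 CPM in the H9 cultures and 63.4 to 123 CPM in the H1 cultures, all 6 were detected in all libraries, and TBR1, NEUROD2, NEUROD6 and EOMES were also highest in culture 1 of each H1 group. The part of that cell type in the result was not tested.

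SLC17A6 (VGLUT2), typical of subcortical and early excitatory neurons, had the highest mean level per kb of the transporters, in H9 vehicle within the spread of SLC17A8 (5.64 ± 2.10 and 5.17 ± 1.37 CPM per kb). It was at 35.6, 31.2 and 16.1 CPM in the H9 vehicle cultures and 36.2, 40.6 and 35.3 CPM in the H9 dexamethasone cultures. The H1 cultures had 43.2, 39.1 and 41.8 CPM with vehicle and 41.8, 42.4 and 36.3 CPM with dexamethasone. The vehicle cultures did not overlap and the dexamethasone cultures did. The log2 difference was −0.57 ± 0.22 with vehicle (edgeR adjusted p = 0.0449, a call made in 3 of 12 fits that left out 1 library) and −0.10 ± 0.21 with dexamethasone (adjusted p = 0.725). Without H9 vehicle culture 3 it was −0.31 with vehicle (adjusted p = 0.00953).

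SLC17A8 (VGLUT3, ENSG00000179520.10, chromosome 12, 100357079 to 100422059), found in neurons that often use a second transmitter, was higher in H9. It was at 24.2, 15.5 and 26.5 CPM in the H9 vehicle cultures and 36.8, 13.8 and 26.1 CPM in the H9 dexamethasone cultures. In H1 it was at 3.86, 7.30 and 5.97 CPM with vehicle and 2.70, 2.64 and 3.01 CPM with dexamethasone. The log2 differences were 1.94 ± 0.34 (edgeR adjusted p = 0.000629) and 3.20 ± 0.36 (adjusted p = 2.44e-05). The window before its start, chr12:100356824-100357073 on the plus strand, held no match to the RE1 parts or the glucocorticoid element. It is shown as that of the transporter with the largest difference.
SLC17A8: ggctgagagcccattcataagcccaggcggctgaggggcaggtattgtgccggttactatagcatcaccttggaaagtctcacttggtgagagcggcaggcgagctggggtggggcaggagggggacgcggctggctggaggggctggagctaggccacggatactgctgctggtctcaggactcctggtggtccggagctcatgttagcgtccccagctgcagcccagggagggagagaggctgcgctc

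In 4 families the shares of some genes did not overlap between the lines. Each gene's share is its level per kb over the sum of its family in the same culture, and no test was made on shares. GRIN2A made up 13.7% to 22.9% of the NMDA level in H9 cultures and 4.57% to 6.29% in H1 cultures. GRIN2B made up 24.2% to 31.9% in H9 and 49.2% to 59.2% in H1. The ratio of GRIN2A to GRIN2B per kb was thus 0.564 to 0.788 in H9 and 0.0835 to 0.117 in H1, with the lowest H9 value in H9 vehicle culture 3. GRIA4 made up 7.16% to 8.69% of the AMPA level in H9 and 3.07% to 5.05% in H1, while GRIA1, GRIA2 and GRIA3 shares overlapped. Within the metabotropic family, GRM3 made up 26.5% to 41.0% in H9 and 48.5% to 52.2% in H1, and GRM2 3.28% to 5.89% and 8.07% to 10.6%. SLC17A8 made up 27.5% to 61.9% of the transporter level in H9 and 5.63% to 16.2% in H1. All 5 kainate shares overlapped between the lines, although the summed kainate level was 59.4 to 92.2 CPM per kb in H9 and 33.3 to 39.7 in H1. A union of exons overstates the length of a gene whose short isoforms prevail, which lowers its share per kb. The limit of exon length given with the levels above holds for these shares and ratios too.

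**Figure D3:**
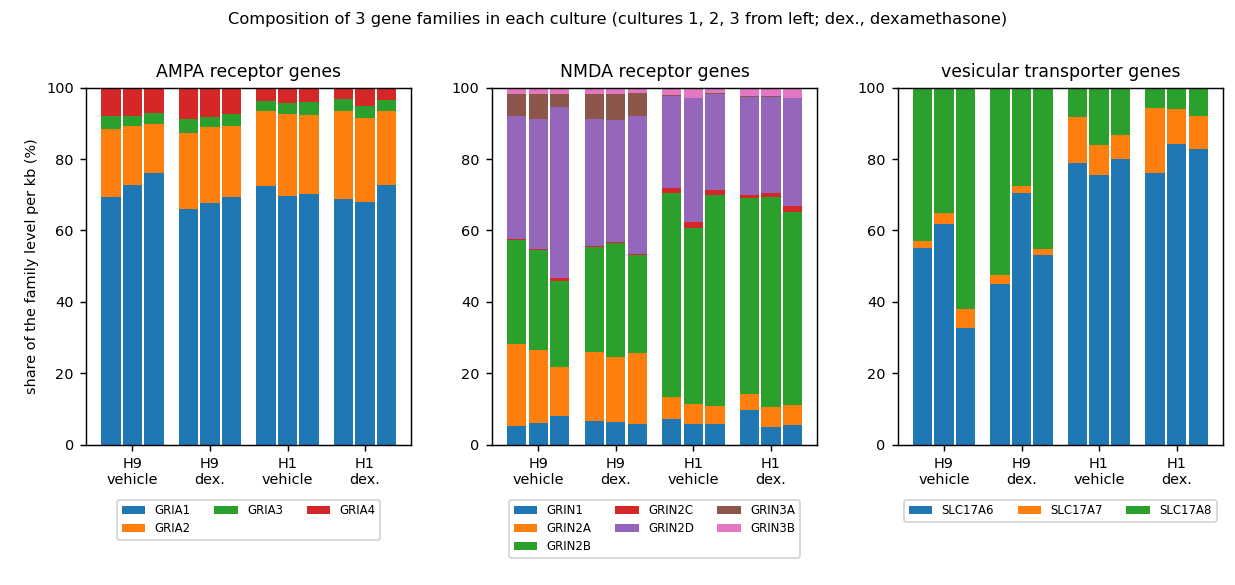
Share of each gene in the summed level per kb of its family, for AMPA receptor, NMDA receptor and vesicular transporter genes; each stacked bar is 1 culture, 3 per group, and adds to 100%. The GRIN2B share is at most 31.9% in H9 and at least 49.2% in H1.

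The summed level of the 10 pan-neuronal markers was higher in H9, at 5537 to 6098 CPM (vehicle) and 6550 to 6766 CPM (dexamethasone) against 4180 to 4196 and 4088 to 4686 CPM in H1. Not all 10 differed: by edgeR's test 4 were higher in H9 and 1 lower with vehicle, and 4 higher and none lower with dexamethasone (median log2 difference 0.44 and 0.19). The sum was carried in part by DCX (901 to 1558 CPM in H9, 611 to 711 in H1) and NEFL (697 to 1321 and 218 to 278), while MAP2 (1528 to 1824 and 1302 to 1711), INA and SYT1 overlapped. The scaling described next weights the markers by their counts and shares that limit. H1 cultures held more of other markers: the 6 dividing cell markers summed to 59.7 to 96.2 CPM in H9 and 388 to 455 in H1, and the 6 mesenchymal markers to 184 to 334 and 1420 to 3231 CPM. The 6 astrocyte markers summed to 542 to 903 CPM in H9 and 331 to 446 in H1. By edgeR's test 4 of 6 mesenchymal markers were lower in H9 in each treatment, while DCN and LUM overlapped between the lines. Of the astrocyte markers 4 of 6 were higher in each treatment, while GFAP and S100B overlapped. When libraries were scaled by the counts of the 10 pan-neuronal markers in place of TMM, the median of all genes shifted from 0.03 to −0.46 with vehicle and from −0.01 to −0.63 with dexamethasone. On that scale 18 members were higher in H9 and 6 lower with vehicle, beside 2091 and 8676 of all 17819 genes. With dexamethasone the member counts were 12 and 7, beside 1583 and 10447 of all genes. Without H9 vehicle culture 3 they were 15 and 9 with vehicle (2181 and 10997 of 18098 genes). With dexamethasone they were then 14 and 11 (2082 and 12132). The 12 higher in both scalings with dexamethasone included GRIN3A, GRIN2A, NETO1, CACNG2, GRM8, GRIA4 and SLC17A8. Called higher with TMM but not on this scale were GRIA1, GRIK2, GRIN1 and GRIN3B with vehicle, and GRIA1, GRIA3, GRIK2, GRIK4, GRIN2D, GRM3 and CNIH3 with dexamethasone. Called lower on it in both treatments were GRM2, NETO2, SLC17A6 and SLC17A7. GRIA2 and GRM3 were also lower with vehicle, and GRIN2B, GRIN2C and CACNG4 with dexamethasone. With all libraries 0 members were called in opposite directions by the scalings. In the fits that left out H9 vehicle culture 3, GRM3 and CACNG4 with vehicle, and GRIA2, GRIK3 and CNIH2 with dexamethasone, were called higher with TMM and lower on the marker scale. The part of cell make-up in the line differences was otherwise not tested.

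**Figure D4:**
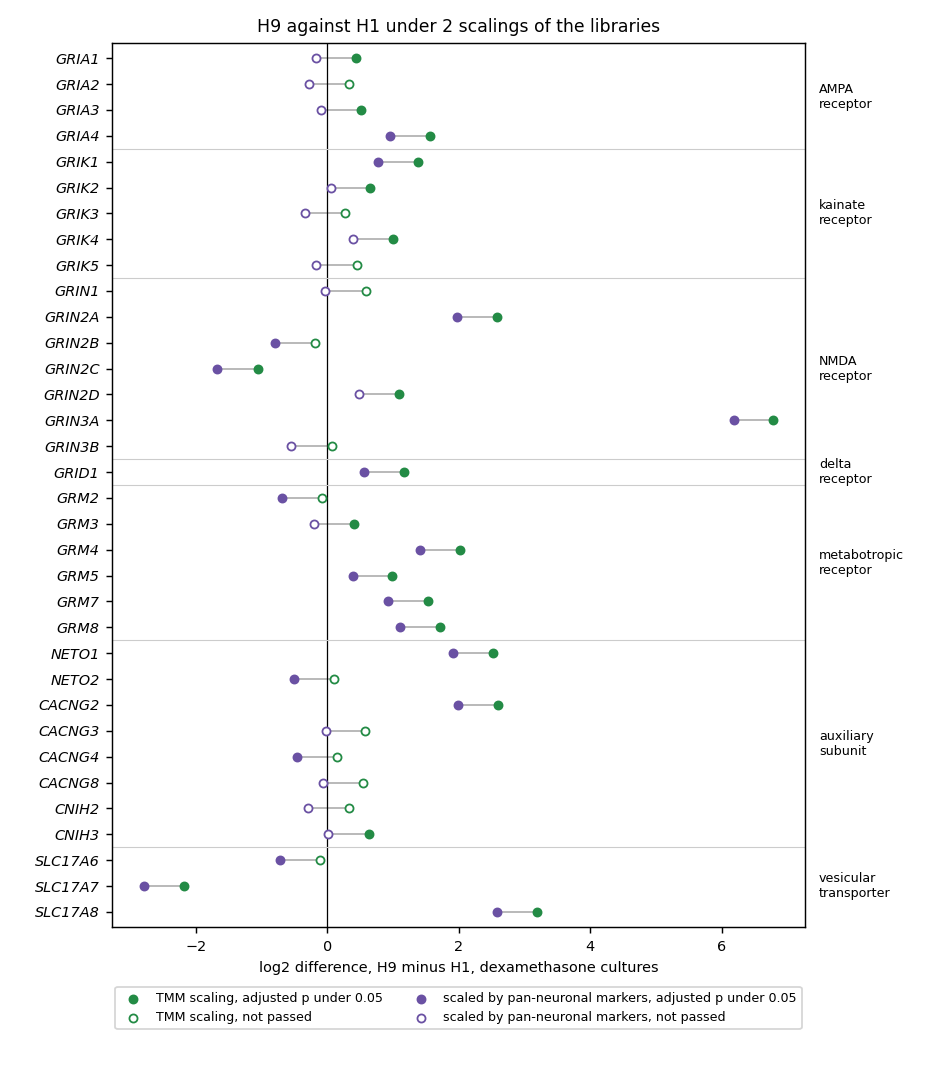
Log2 difference, H9 minus H1, of each tested member in the dexamethasone cultures with TMM scaling and with scaling by 10 pan-neuronal markers, joined by a line; filled points have an edgeR adjusted p under 0.05. All points shift left with the second scaling, from 19 filled above 0 to 12.

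Dexamethasone changed no member past the threshold. In H9, 0 of 34 passed edgeR's quasi-likelihood test (0.0673% of all genes passed, all of them higher), with 8 at an unadjusted p under 0.05 (23.5%, and 16.3% of all genes). Without H9 vehicle culture 3, 0 passed (0.293% of all genes, 0.254% higher and 0.0387% lower). Then 2 members had an unadjusted p under 0.05, beside 2010 of all 18098 genes. In H1, 0 passed (0.0505% of all genes, all of them higher), with 2 at an unadjusted p under 0.05 (5.88%, and 2.95% of all genes). Without H9 vehicle culture 3, whose loss changes the shared spread, 0 passed in H1 (0.326% of all genes, 0.166% higher and 0.16% lower). For the difference of the effects between lines, 0 passed (0 of all genes), with 2 at an unadjusted p under 0.05 (5.88%, and 7.46% of all genes). DESeq2 and limma-voom also called 0 members in each of these comparisons. Of all 17818 genes, DESeq2 called 82 higher and 74 lower in H9, and 15 and 10 in H1. Of all 17819 genes, limma-voom called 12 in H9 and 8 in H1, all of them higher. Both called 0 genes for the difference of the effects. Groups did not overlap in 3 of 34 members in H9, or 8.82% (21.4% of all genes, 9.76% higher and 11.6% lower with dexamethasone), and in 3 in H1 (14.1%, with 7.15% and 6.98%). They were GRIA2 (higher), GRIN3B and GRM7 (lower) in H9, and GRIK3 (higher), GRM8 and SLC17A8 (lower) in H1. Log2 differences, dexamethasone minus vehicle, ran from −0.87 to 0.43 in H9, −0.26 to 0.36 without H9 vehicle culture 3, and −1.04 to 0.36 in H1. Their median standard error was 0.19 in each line. These comparisons share the vehicle libraries with the line comparison above.

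The members with the smallest p in H9 were GRIK3 and GRIA2. GRIK3 was at 76.3, 94.2 and 118 CPM with vehicle and 69.4, 76.9 and 67.5 CPM with dexamethasone, which overlap (log2 −0.43 ± 0.15, edgeR adjusted p = 0.299). For GRIA2, whose values are above, the log2 difference was 0.40 ± 0.15 (adjusted p = 0.299). In H1 they were SLC17A8, lower in all 3 dexamethasone cultures at −1.04 ± 0.36, and GRIK3, at 44.8, 40.8 and 52.6 CPM with vehicle and 57.4, 57.0 and 62.7 CPM with dexamethasone (0.36 ± 0.15, edgeR adjusted p = 1 for both). The same genes had the smallest p for the difference of the effects, H9 minus H1. It was −0.79 ± 0.21 for GRIK3 and 1.25 ± 0.48 for SLC17A8 (edgeR adjusted p = 0.548 for both). CACNG8 had the lowest value in H9 (−0.87 ± 0.37), which was −0.06 without H9 vehicle culture 3. That culture was also the highest library for GRIK3 and the lowest for GRIA2. Without it the H9 values of GRIK3 and GRIA2 were −0.26 and 0.27.

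**Figure D5:**
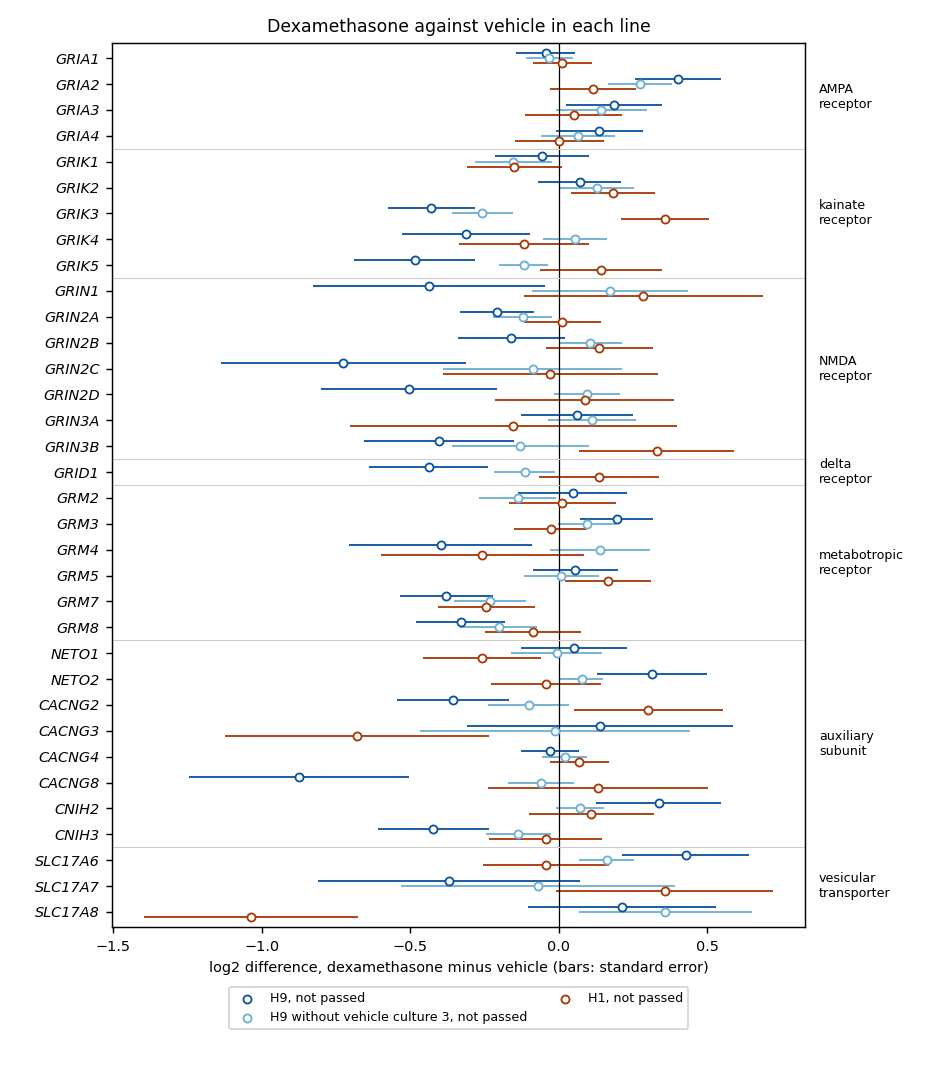
Log2 difference, dexamethasone minus vehicle, of each tested member in H9, in H9 without vehicle culture 3, and in H1, with its standard error. All points are open because no member had an edgeR adjusted p under 0.05, and the H9 values narrow to −0.26 to 0.36 without that culture.

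Other genes of the glutamate synapse, a list of 49, were also more often called higher than lower in H9. This list too was chosen with earlier results of these data known. Of 47 tested, 26 were higher in H9 and 5 lower with vehicle (25.7% and 21.2% of all genes), with a median log2 difference of 0.60, and 24 and 6 with dexamethasone (22.5% and 21.2%). The counts without H9 vehicle culture 3 were 28 and 8 with vehicle (30.1% and 28.6% of all genes) and 27 and 7 with dexamethasone (31.9% and 32.8%). NSF, which recycles vesicle fusion complexes, was listed at 0, and PRRT1 did not pass the filter. Among other AMPA receptor partners 10 of 13 were higher and none lower, including SHISA6 (28.3 against 6.55 CPM on average), a stabiliser of postsynaptic receptors. Among scaffolds 12 of 22 were higher, while DLG1, a membrane-associated guanylate kinase, was lower (log2 −0.64 ± 0.12). IQSEC2 differed by 1.76 ± 0.22 on the log2 scale with vehicle and 1.39 ± 0.22 with dexamethasone, and the kinase subunit CAMK2B by 1.59 ± 0.24 and 0.92 ± 0.24. CAMK2B varied widely in the H9 vehicle group (189 ± 87.8 CPM, SD, n = 3), and no scaffold exceeded 1.38 with vehicle once H9 vehicle culture 3 was left out. Among uptake and metabolism genes 4 of 12 were higher and 3 lower with vehicle, with a median log2 difference of 0.23. The astrocytic transporter SLC1A3, also on the astrocyte list, was higher (1.01 ± 0.19), and the glutamine transporter SLC38A2 lower (−1.67 ± 0.31). Dexamethasone changed none of the 47 past the threshold in edgeR's test in either line.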

How the data were processed

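Polyadenylated RNA of 12 cultures was sequenced. The authors deposited whole-number read counts for each gene, as a separate file for each library. STAR 2.5.3a and HTSeq are named as tools, and hg38 and GRCh38.p10 as builds, per the submitters' processing notes. The strand setting, annotation and treatment of multiply mapped reads are left unstated there. Groups came from the labels of line and condition. Symbols and exon lengths came from a gene name table and GENCODE 29, and promoter windows from RefSeq.

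The filterByExpr function of edgeR 4.0.16 (R 4.3.3) kept 17819 genes, and libraries were scaled by TMM. The quasi-likelihood F-test used 1 mean per group over 12 libraries (8 residual degrees of freedom), Benjamini-Hochberg adjustment over all genes and a threshold of 0.05. Standard errors were derived from the F statistic and the log2 difference. Levels are given as TMM-scaled CPM, with the SD over 3 cultures.

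The members and lists were chosen with earlier results of these data known. Per-culture values are given for up to 8 members with the largest passed difference each way (vehicle, mean CPM of at least 1), the 2 with the smallest p in each dexamethasone comparison, and the highest per kb in each family; other members are given by means and counts. No pair of sister cultures agreed within sampling noise. The test was checked on simulated counts. The alternatives tried were DESeq2 1.42.0, limma-voom (limma 3.58.1), RLE size factors, other filters, neuron-marker scaling, fits of 1 treatment, the culture number as a block, and each library left out. Marker lists of inhibitory neurons (summed 326 to 645 CPM), neural progenitors (3936 to 7796), oligodendrocyte lineage (46.9 to 132), choroid plexus (44.4 to 189) and pluripotent cells (0.933 to 5.39) were also read. Figures were drawn in matplotlib 3.10.9 under Python 3.11.15. The result of 1 gene of the wider synapse list is not reported here.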

Additional observations from a re-analysis of the deposited data

How the results depend on the processing

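With RLE size factors, DESeq2, limma-voom, no filter on low counts or a minimum of 1 CPM in 3 libraries, 22 to 23 members were higher and 2 lower in H9 with vehicle, and 19 to 20 higher and 2 lower with dexamethasone. Leaving out 1 library at a time gave 21 to 28 members past the test with vehicle (20 to 25 higher, 0 to 3 lower) and 17 to 27 with dexamethasone (16 to 25 higher, 1 to 2 lower). The highest counts came without H9 vehicle culture 3, where more of all genes passed too. These were 58.6% with vehicle and 64.6% with dexamethasone, against 46.9% and 43.6% with all libraries. With RLE, DESeq2 and limma-voom, 4332 to 4726 of all genes were higher and 3866 to 4134 lower with vehicle. With dexamethasone 4026 to 4234 were higher and 3723 to 3977 lower. Totals over all genes are not given for the other filters, the replicate block and the other fits that left out 1 library. Fitted on the vehicle libraries alone, 1 member was lower. Neuron-marker scaling, for which the counts over all genes are given above, gave 6 lower with vehicle, and 12 higher and 7 lower with dexamethasone. Without H9 vehicle culture 3 as well, a combination chosen after seeing the data, 9 were lower with vehicle and 11 with dexamethasone. On that scale the direction turned for 6 members with vehicle (GRIA2, GRIA3, GRIN2B, GRM3, CACNG4, CNIH2) and 13 with dexamethasone (GRIA1, GRIA2, GRIA3, GRIK3, GRIK5, GRIN1, GRIN3B, GRM3, NETO2, CACNG3, CACNG4, CACNG8, CNIH2). Among the values with vehicle were those of CACNG4 (−0.23, and −0.32 without that culture), GRM3 (−0.30 and −0.24), GRIN2B (−0.37 and −0.69) and, without that culture, GRIA1 (−0.047). With TMM, GRIN2B (0.22 without H9 vehicle culture 2) turned to −0.16 without H9 vehicle culture 3, −0.02 without H1 vehicle culture 2, and −0.17 with the block and without H9 vehicle culture 3, also chosen after seeing the data. Apart from the scaling itself, the cause was not tested. No member passed a dexamethasone comparison in any setting run.

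The labels share culture numbers between groups but name no shared origin. Of 18 same-numbered pairs 4 had deviations that correlated over 0.1, and 7 of 12 libraries correlated best with their own number, so the numbers were not taken as pairs. With the replicate block 23 members were higher and 2 lower with vehicle, 20 and 2 with dexamethasone, and 0 passed in the dexamethasone comparisons.

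Depth limited GRM6, CACNG3 and the H1 levels of GRIN3A, which rest on few counts, and counting error is the least error these levels have.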
